A study of Mus musculus with 12 samples.

Results

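The nuclear genes of oxidative phosphorylation were examined in CD115+ monocytes of the spleen and peripheral blood of mice. Genes were taken by name: every row whose symbol starts with Ndufa, Ndufb, Ndufc, Ndufs, Ndufv, Sdh, Uqcr, Cox4, Cox5, Cox6, Cox7, Cox8 or Atp5 and that holds at least 10 counts in 3 or more libraries. Of 105 genes with such a symbol, 94 met the count minimum under that symbol, among 52553 genes or accessions in all. They were divided into 38 subunits of complex I, 4 of complex II, 8 of complex III, 15 of complex IV, 17 of complex V and 12 assembly factors (Ndufaf1 to Ndufaf8 and Sdhaf1 to Sdhaf4), which are not parts of the finished complexes. Ndufa4 was counted with complex IV, where its protein is now placed. All 94 passed the filter on low counts and were tested.

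The mice were C57BL/6 males without genetic modification. Intact animals kept both liver and spleen. Resected animals had lost 70% of the liver, kept the spleen and were sampled 24 h later. Monocytes were sorted on magnetic anti-CD115 beads from each organ, 5 mice were pooled for each library, and 3 libraries were made for each of the 4 groups (intact spleen, resected spleen, intact blood, resected blood). A p-value therefore measures the spread between pools, which averages over the animals inside each pool. Bulk libraries cannot tell fewer cells of a type from less RNA per cell.

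Oxidative phosphorylation is the last stage of respiration. Complexes I and II take electrons from NADH and succinate, complex III passes them to cytochrome c, complex IV gives them to oxygen, and complex V (ATP synthase) uses the proton gradient built on the way to make ATP. Most subunits are encoded in the nucleus and imported, while a core of them is encoded in mitochondrial DNA. In monocytes and macrophages the balance between this pathway and glycolysis is known to shift with activation and differentiation. The mitochondrially encoded subunits were not analysed here.

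Libraries held between 36990033 and 46401368 estimated counts. Levels are given as CPM, counts scaled to a common library size after TMM, edgeR's trimmed mean of M values. Csf1r, which encodes CD115, was present in every library, at 209 to 1192 CPM. Haemoglobin genes took 13.2% to 34.2% of the counts of blood libraries and 0.0814% to 3.47% of those of splenic libraries. The 10 neutrophil markers summed to 931 to 1950 CPM in intact spleen, 5299 to 15408 in resected spleen, 125 to 413 in intact blood and 4064 to 20686 in resected blood, and the 4 hepatocyte markers stayed at or below 1.55 CPM in every library. Intact blood library 3 stood apart from the other two of its group. Its 6 proliferation markers summed to 1673 CPM, against 117 and 95.7 CPM in libraries 1 and 2. Its 5 T cell markers summed to 1941 CPM, against 550 and 557 CPM. Its 9 monocyte markers summed to 1177 CPM, against 2541 and 2042 CPM.

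On the TMM scale the members summed to a higher level in every resected library than in intact spleen and in intact blood libraries 1 and 2. Their summed level was 4452, 4334 and 4457 CPM in intact spleen. It was 4687, 6469 and 5976 CPM in resected spleen. It was 4162, 4187 and 6956 CPM in intact blood and 6132, 6336 and 5692 CPM in resected blood. Resected spleen library 1 therefore lay close to intact spleen, and intact blood library 3 lay above every library of every other group. In complexes III and V intact blood library 3 was likewise above all other libraries, and in complexes I and II above all but resected spleen library 2, whereas in complex IV intact blood library 3 (1177 CPM) stayed below all resected blood libraries (1379, 1414 and 1252 CPM).

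As a plain share of all gene counts the order was not the same. The members held 0.547% to 0.559% of the counts in intact spleen and 0.535%, 0.734% and 0.681% in resected spleen. They held 0.348%, 0.394% and 0.756% in intact blood and 0.474%, 0.419% and 0.444% in resected blood, so that all resected blood libraries lay below intact spleen. With haemoglobin genes left out of the total, the shares in blood were 0.520%, 0.529% and 0.871% in intact and 0.672%, 0.637% and 0.532% in resected libraries.

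**Figure D1:**
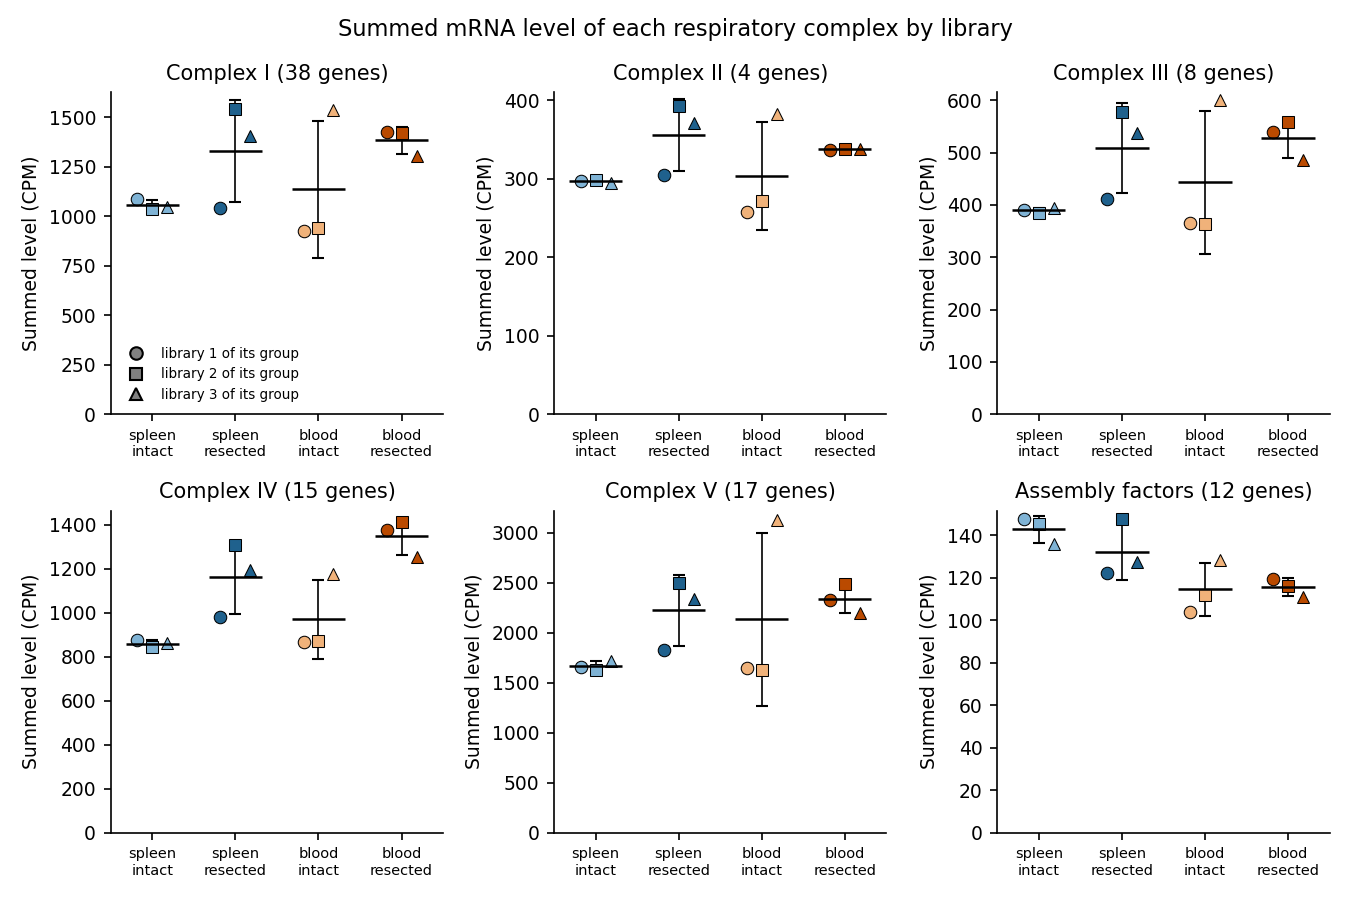
Summed level (CPM, TMM-scaled) of the members of each complex in each of the 12 libraries, by group. Points are libraries, horizontal lines are group means and vertical bars are 1 SD (n = 3). Within intact blood, library 3 (triangle) lies far above libraries 1 and 2 for complexes I to V, and within resected spleen, library 1 (circle) lies below libraries 2 and 3.

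The level also differed widely between members. Per kilobase of spliced length, which could be taken for 90 of the 94, the highest mean in intact spleen was that of Atp5b, the catalytic beta subunit of ATP synthase, at 230.1 CPM per kilobase, followed by Cox4i1 (207), Cox8a (166), Cox7a2l (161) and Atp5a1 (155). The 5 lowest were Cox7a1 (0.288), Sdhaf3 (0.689), Cox6a2 (1.55), Cox6b2 (1.79) and Ndufaf6 (2.77). The low end was thus made up of assembly factors and of 3 complex IV isoforms known from muscle and testis.

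The first question was whether the splenic and blood monocyte pools differ after resection. In blood, the log2 fold change was above 0 for 78 of the 94 members, against 45.2% of all 20135 features tested. Its median was 0.33 over the members and -0.10 over all features. Of the members, 10 passed an adjusted p of 0.05 as higher (Ndufa1, Ndufa2, Ndufa13, Uqcrq, Cox4i1, Cox5b, Cox6b1, Cox8a, Atp5l and Sdhaf1) and 0 as lower. Over all features, 10.8% passed as higher and 10.3% as lower, so 10 of 94 was close to the background. At an unadjusted p of 0.05 the members counted 26 higher and 1 lower, against 16.9% and 19.0% of all features. In DESeq2, at an adjusted p, they counted 23 and 0, against 15.7% and 15.3% of the 19767 features given an adjusted p. None of the 10 exceeded a log2 fold change of 1, which 7.80% of all features did in that direction. The 3 intact and the 3 resected libraries did not overlap for 23 members, against 38.4% of all features. Of the 10 calls, those of Cox8a and Ndufa1 were kept whichever of the 12 libraries was left out, and the other 8 were lost in 1 to 9 of those fits, at adjusted p of up to 0.11.

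That count depended on intact blood library 3. Without it, 52 members passed as higher and 0 as lower, against 11.1% and 10.5% of 21062 features, and the median member log2 fold change became 0.61 with a median of 0.00 over all features. The 52 were 20 subunits of complex I, 3 of complex II, 5 of complex III, 11 of complex IV, 12 of complex V and 1 assembly factor. Library 3 was above both other intact libraries for 87 of the 94 members, against 43.0% of all features, by a median of 1.62-fold. It was above all 3 resected libraries for 44 members (40.4% of all features), below all of them for 24 (36.4%) and among them for 26. Against libraries 1 and 2 alone, all 3 resected libraries were higher for 80 members, against 27.9% of all features. The part of the T cell and proliferation markers of library 3 in these differences was not tested.

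The direction in blood depended on the scaling as well. With plain library totals (haemoglobin genes left out, no TMM) the median over all features moved from -0.10 to -0.42 and that of the members from 0.33 to 0.02, with 51 members positive and 43 negative. Ndufa1 was then the 1 member that passed as higher, and Sdha, Ndufaf4 and Sdhaf2 passed as lower. The distance between the members and all features was 0.44 log2 units under both scalings. It could hardly differ, since a new scaling shifts all features of a contrast by about the same amount. All blood values below are on the TMM scale and are to be read against the median of -0.10. All 10 neutrophil markers and 4 of 6 red pulp macrophage markers passed as higher in resected blood, and all 5 T cell markers as lower. Of the 9 monocyte markers 2 passed in each direction, and their sum was 1177 to 2541 CPM in intact and 3892 to 6541 CPM in resected blood. The part of these markers was not tested.

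In spleen, most members were above 0 but few passed. The log2 fold change was above 0 for 84 of 94 members and for 81 of the 82 subunits, against 53.6% of all features. Its median over the 94 was 0.38, against 0.05 over all features. With plain totals the medians were 0.26 and -0.06, and 79 members were positive. At an adjusted p of 0.05, 1 member passed as higher (Cox8a) and 1 as lower (Sdhaf2), against 1.02% and 1.03% of all features. The groups did not overlap for 37 of the 94 members, against 35.1% of all features. At an unadjusted p of 0.05 the members counted 24 higher and 1 lower, against 11.5% and 9.31% of all features. In DESeq2, at an adjusted p, they counted 8 and 1, against 7.69% and 6.91% of 18994 features. All groups share an estimate of the spread, and the scaling and the features tested also depend on every library. Without intact blood library 3 the splenic count was 15 higher and 1 lower, against 5.09% and 4.50% of 21062 features.

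The splenic difference was larger in resected libraries 2 and 3 than in library 1. Relative to the intact mean, the median member stood at 1.03-fold in library 1, 1.54-fold in library 2 and 1.34-fold in library 3. Library 1 was above all 3 intact libraries for 36 members, library 2 for 88 and library 3 for 76, against 34.4%, 38.1% and 40.2% of all features. The 6 proliferation markers summed to 335, 984 and 734 CPM in the same 3 libraries, against 232, 162 and 344 CPM in intact spleen. The 9 erythroid markers found, of 10, summed to 7540, 32856 and 9001 CPM against 935, 718 and 3393 CPM. The 6 plasma cell markers summed to 4069, 4740 and 4425 CPM against 3081, 2215 and 2924 CPM. For these 3 lists the lowest, middle and highest resected library were the same as for the members, an order over 3 libraries only. The 6 red pulp macrophage markers summed to 2280, 3577 and 2111 CPM against 1089 to 1641 CPM, and the 9 monocyte markers to 3076 to 3485 CPM against 1515 to 1994 CPM. Sums were lower after resection for B cell markers (1071 to 3315 against 3910 to 4447 CPM), T cell markers (55.2 to 85.8 against 129 to 253 CPM) and NK cell markers (10.2 to 41.7 against 72.0 to 138 CPM). The part of these markers was not tested. Without library 1 the median rose to 0.51 while 2 members passed as higher, both of complex IV, and 0 as lower, against 0.539% and 0.440% of 21151 features.

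**Figure D2:**
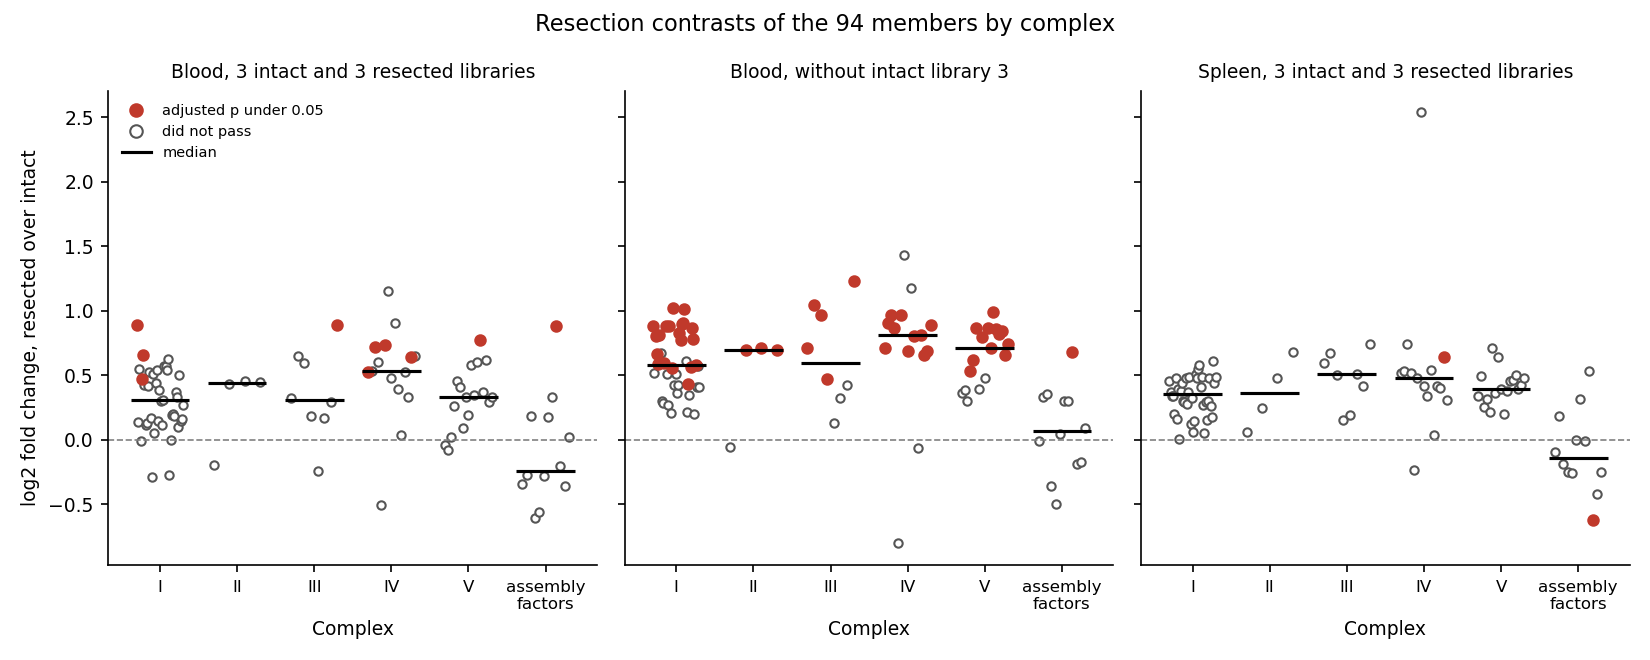
Log2 fold change (resected over intact) of each of the 94 members by complex, in blood with all libraries, in blood without intact library 3 and in spleen. Filled points passed an adjusted p of 0.05 and lines are medians. Filled points number 10, 52 and 2, and medians of complexes I to V lie above 0 in each panel while that of the assembly factors lies at -0.24, 0.07 and -0.14.

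Complex I oxidises NADH and reduces ubiquinone. In blood 34 of its 38 subunits were positive (median 0.31) and in spleen 38 of 38 (median 0.35), against 45.2% and 53.6% of all features. In edgeR 3 and 0 passed, against 10.8% and 1.02% of all features as higher. At an unadjusted p of 0.05 the subunits counted 9 and 8 as higher, against 16.9% and 11.5%. In DESeq2 they counted 9 and 1, against 15.7% and 7.69% as higher. The subunit with the smallest p in blood was Ndufa1, a small membrane subunit. Its level was 28.3, 22.7 and 25.7 CPM in intact blood and 49.7, 48.6 and 43.7 CPM in resected blood, a log2 difference of 0.89 ± 0.16 (SE, adjusted p = 0.00542). Here intact library 3 lay between libraries 1 and 2, and the 2 groups did not overlap. In spleen Ndufa1 was at 23.2, 22.9 and 22.3 CPM before and 23.6, 33.9 and 36.2 CPM after resection (0.46 ± 0.16, adjusted p = 0.15). The other complex I genes that passed in blood were Ndufa2 (0.65 ± 0.20, adjusted p = 0.0409) and Ndufa13 (0.47 ± 0.15, adjusted p = 0.0478), both accessory subunits.

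Ndufs1, an iron-sulfur subunit on the path of the electrons, was at 45.0, 47.5 and 69.5 CPM in intact blood and 50.2, 52.8 and 58.7 CPM in resected blood, so that intact library 3 exceeded every resected library. Its log2 difference was -0.0037 ± 0.19 in blood and 0.27 ± 0.19 in spleen (adjusted p = 0.996 and 0.439). Ndufv1, which binds NADH and the flavin, was at 46.1, 44.7 and 48.8 CPM in intact spleen and 50.6, 84.4 and 78.0 CPM in resected spleen without overlap (0.61 ± 0.22, adjusted p = 0.158). In blood it differed by 0.15 ± 0.22 (adjusted p = 0.679). The member with the widest gap between intact blood libraries was Ndufc2, an accessory subunit, at 22.5, 22.6 and 80.1 CPM, a 3.55-fold excess of library 3 over the mean of the other two.

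In complex II, succinate dehydrogenase, the members did not move alike. Sdhb, Sdhc and Sdhd, which encode the iron-sulfur subunit and the membrane anchors, had log2 differences of 0.43, 0.46 and 0.44 in blood and 0.25, 0.48 and 0.68 in spleen, and none passed. Without intact blood library 3 all 3 of them passed in blood (0.69, 0.71 and 0.70). In that fit 52 of the 94 members and 11.1% of all features passed as higher. The library left out was the highest intact blood library for all 4 complex II genes, so leaving it out could only lower their intact level. Sdha, the flavoprotein that oxidises succinate, was at 135, 146 and 185 CPM in intact blood and 140, 139 and 127 CPM in resected blood (-0.20 ± 0.14, adjusted p = 0.358). In spleen it was at 166, 164 and 163 CPM before and 158, 194 and 162 CPM after resection, groups that overlapped.

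In complex III, the cytochrome bc1 complex, 7 of 8 subunits were positive in blood (median 0.31) and 8 of 8 in spleen (median 0.51). Uqcrq, a small subunit bound to cytochrome b, passed in blood, with 25.5, 21.4 and 42.6 CPM in intact and 53.7, 59.2 and 53.0 CPM in resected libraries (0.89 ± 0.24, adjusted p = 0.0272). All 3 resected libraries were higher than the highest intact one. In spleen it was at 26.7, 26.5 and 25.9 CPM before and 33.5, 47.3 and 51.2 CPM after resection, again without overlap (0.74 ± 0.24, adjusted p = 0.124). Uqcrfs1, the Rieske iron-sulfur protein, was at 56.0, 57.4 and 65.4 CPM in intact and 78.5, 85.6 and 90.7 CPM in resected spleen (0.51 ± 0.14, adjusted p = 0.0858). Here resected library 1 was also above every intact library. The large core proteins had smaller differences: Uqcrc1 0.19 in blood and 0.15 in spleen, and Uqcrc2 -0.24 and 0.19, with overlapping groups in both tissues.

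Complex IV, cytochrome c oxidase, had the highest median in blood, 0.54, with 14 of 15 members positive, 4 passing and 9 of 15 without overlap. Over all features in blood, 45.2% were positive, 10.8% passed as higher and 38.4% did not overlap in either direction. The splenic median of complex IV was 0.48, with 14 of 15 positive, 1 passing and 10 without overlap. The same shares over all features in spleen were 53.6%, 1.02% and 35.1%. Cox8a, a short membrane subunit, was the 1 member that passed in both tissues. In intact blood it was at 87.3, 89.7 and 97.4 CPM and in resected blood at 147, 150.1 and 132 CPM (0.65 ± 0.12, adjusted p = 0.0058). In intact spleen it was at 89.8, 86.8 and 96.6 CPM and in resected spleen at 126, 156 and 145 CPM (0.64 ± 0.12, adjusted p = 0.0362). The 6 resected libraries were all above the 6 intact ones, including intact blood library 3 and resected spleen library 1. With plain totals its differences were 0.34 and 0.53 and neither passed (adjusted p = 0.0948 and 0.0719). The splenic call was also lost with no filter on low counts (adjusted p = 0.0692), with only the groups compared in the fit (0.0544), with the replicate number as a block (0.0565) and in 9 of the 12 fits without 1 library (adjusted p of up to 0.188).

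**Figure D3:**
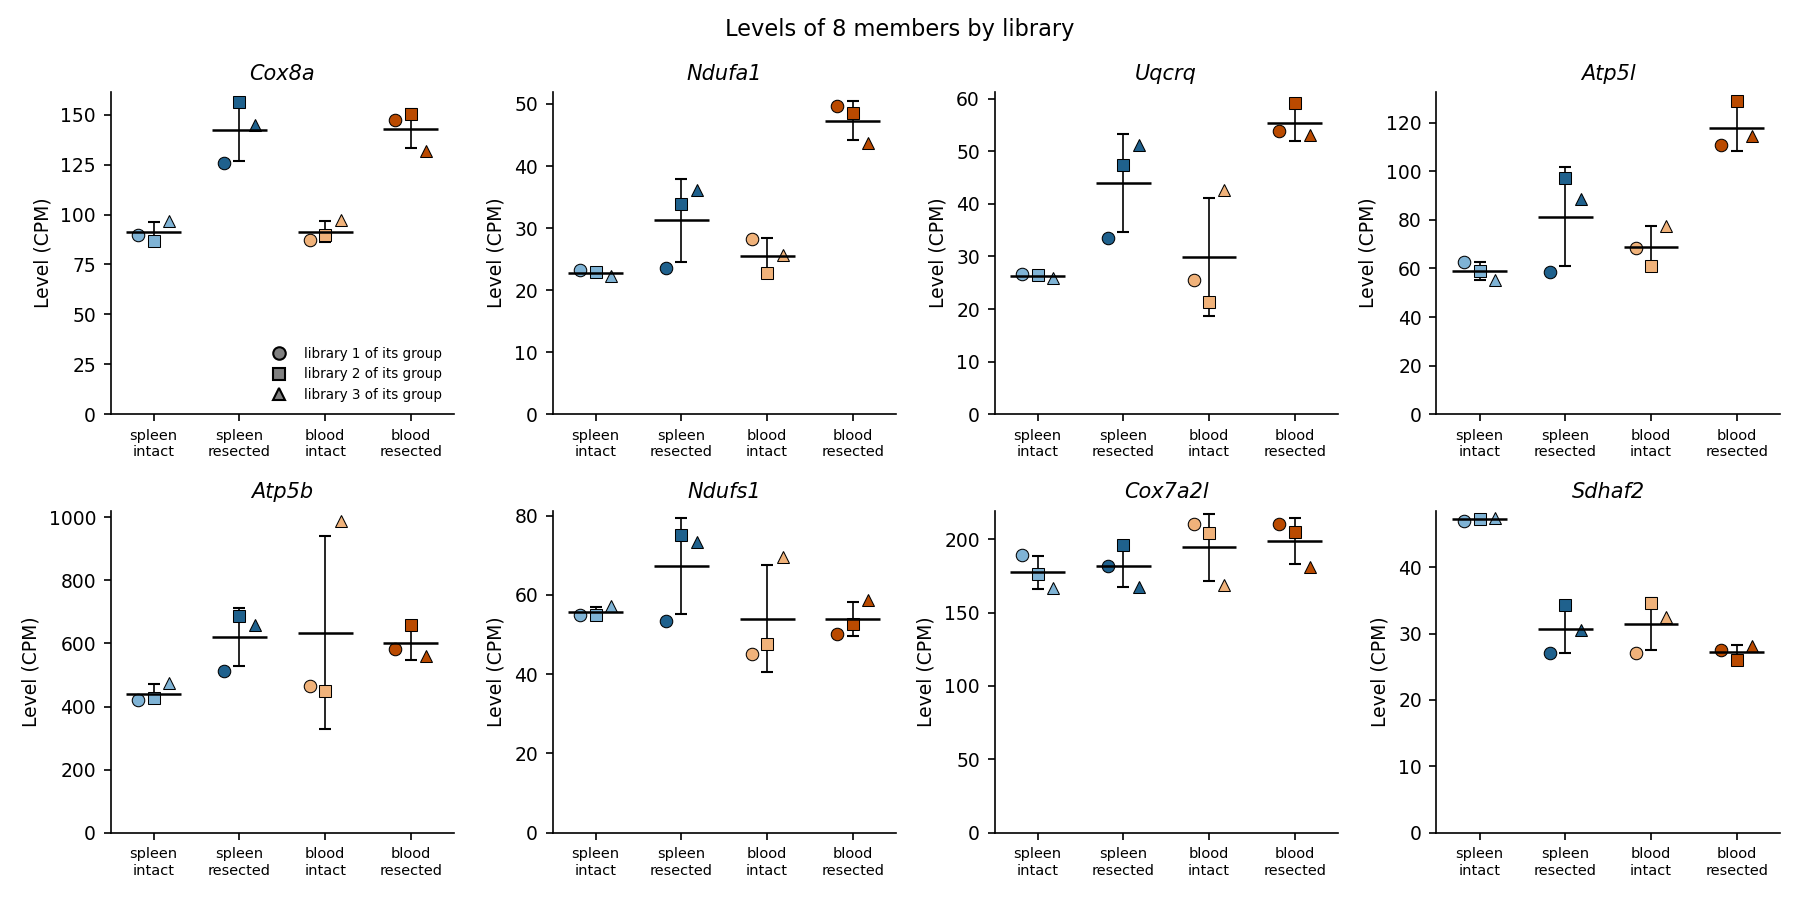
Level (CPM) of 8 members in each library, with group means (lines) and 1 SD (bars, n = 3). Cox8a is higher in all 6 resected than in all 6 intact libraries, Atp5b and Ndufs1 have their highest intact value in intact blood library 3, Cox7a2l varies little, and Sdhaf2 is highest in intact spleen.

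The other complex IV genes that passed in blood were Cox5b, a zinc-binding subunit (0.72 ± 0.20, adjusted p = 0.0275), Cox6b1, which faces cytochrome c (0.73 ± 0.21, adjusted p = 0.0326), and Cox4i1, the regulatory subunit that binds nucleotides (0.53 ± 0.16, adjusted p = 0.0432). Cox5b was at 38.2, 40.2 and 61.5 CPM in intact and 79.3, 74.9 and 76.1 CPM in resected blood. In spleen it was at 39.9, 40.4 and 43.8 CPM before and 54.1, 78.9 and 74.4 CPM after resection (0.74 ± 0.20, adjusted p = 0.0779). Groups of both tissues were separate, and intact blood library 3 was the highest of the intact libraries. Cox5a differed by 0.54 in blood and 0.53 in spleen without passing. Ndufa4 differed by 0.65 ± 0.23 in blood (adjusted p = 0.0716) and 0.31 ± 0.23 in spleen (adjusted p = 0.48).

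Complex IV exists with tissue isoforms, and the ubiquitous form held nearly all of the level in every library. Per kilobase, Cox6a1 made up at least 98.6% of Cox6a, Cox7a2 at least 98.1% of Cox7a1 plus Cox7a2, and Cox6b1 at least 91.7% of Cox6b. The last share was lowest in resected spleen, where Cox6b2, the testis form, was at 1.35, 8.10 and 4.20 CPM against 0.779, 0.626 and 0.936 CPM in intact spleen. That was the largest difference of any member in spleen, 2.54 ± 0.60 on the log2 scale, at an adjusted p of 0.0582. In blood Cox6b2 was at 1.90, 1.57 and 2.86 CPM in intact and 5.68, 5.50 and 2.90 CPM in resected libraries (1.15 ± 0.57, adjusted p = 0.175). The muscle forms Cox6a2 and Cox7a1 stayed below 1.5 CPM in every library. Cox7a2l, counted here with complex IV, varied little, with 167 to 211 CPM over the 12 libraries. Cox7a2l had log2 differences of 0.03 ± 0.13 in both tissues. It shares sequence with Cox7a2, as Atp5g1, Atp5g2 and Atp5g3 do among themselves, and how the counting split shared reads is not given in the sources used here.

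In complex V, 15 of 17 subunits were positive in blood (median 0.33) and 17 of 17 in spleen (median 0.40). Atp5l, subunit g of the membrane part, passed in blood. It was at 68.2, 61.1 and 77.7 CPM in intact and 111, 129 and 114 CPM in resected blood (0.77 ± 0.18, adjusted p = 0.0157), without overlap. For both subunits of the catalytic head, intact blood library 3 lay far above all resected libraries. Atp5b was at 467, 449 and 988 CPM in intact blood and 581, 660 and 561 CPM in resected blood (-0.08 ± 0.28, adjusted p = 0.871). Atp5a1 was at 383, 393 and 762 CPM in intact and 492, 520 and 487 CPM in resected blood (-0.04 ± 0.25, adjusted p = 0.936). Without library 3 these differences were 0.39 and 0.36, and neither passed. In spleen the libraries of both genes were separate, with Atp5b at 422, 426 and 475 CPM before and 514, 687 and 659 CPM after resection (0.49 ± 0.28, adjusted p = 0.353). The 3 genes for the rotor ring subunit c differed by 0.41 (Atp5g1), 0.09 (Atp5g2) and 0.33 (Atp5g3) in blood and by 0.71, 0.36 and 0.64 in spleen, and none passed.

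**Figure D4:**
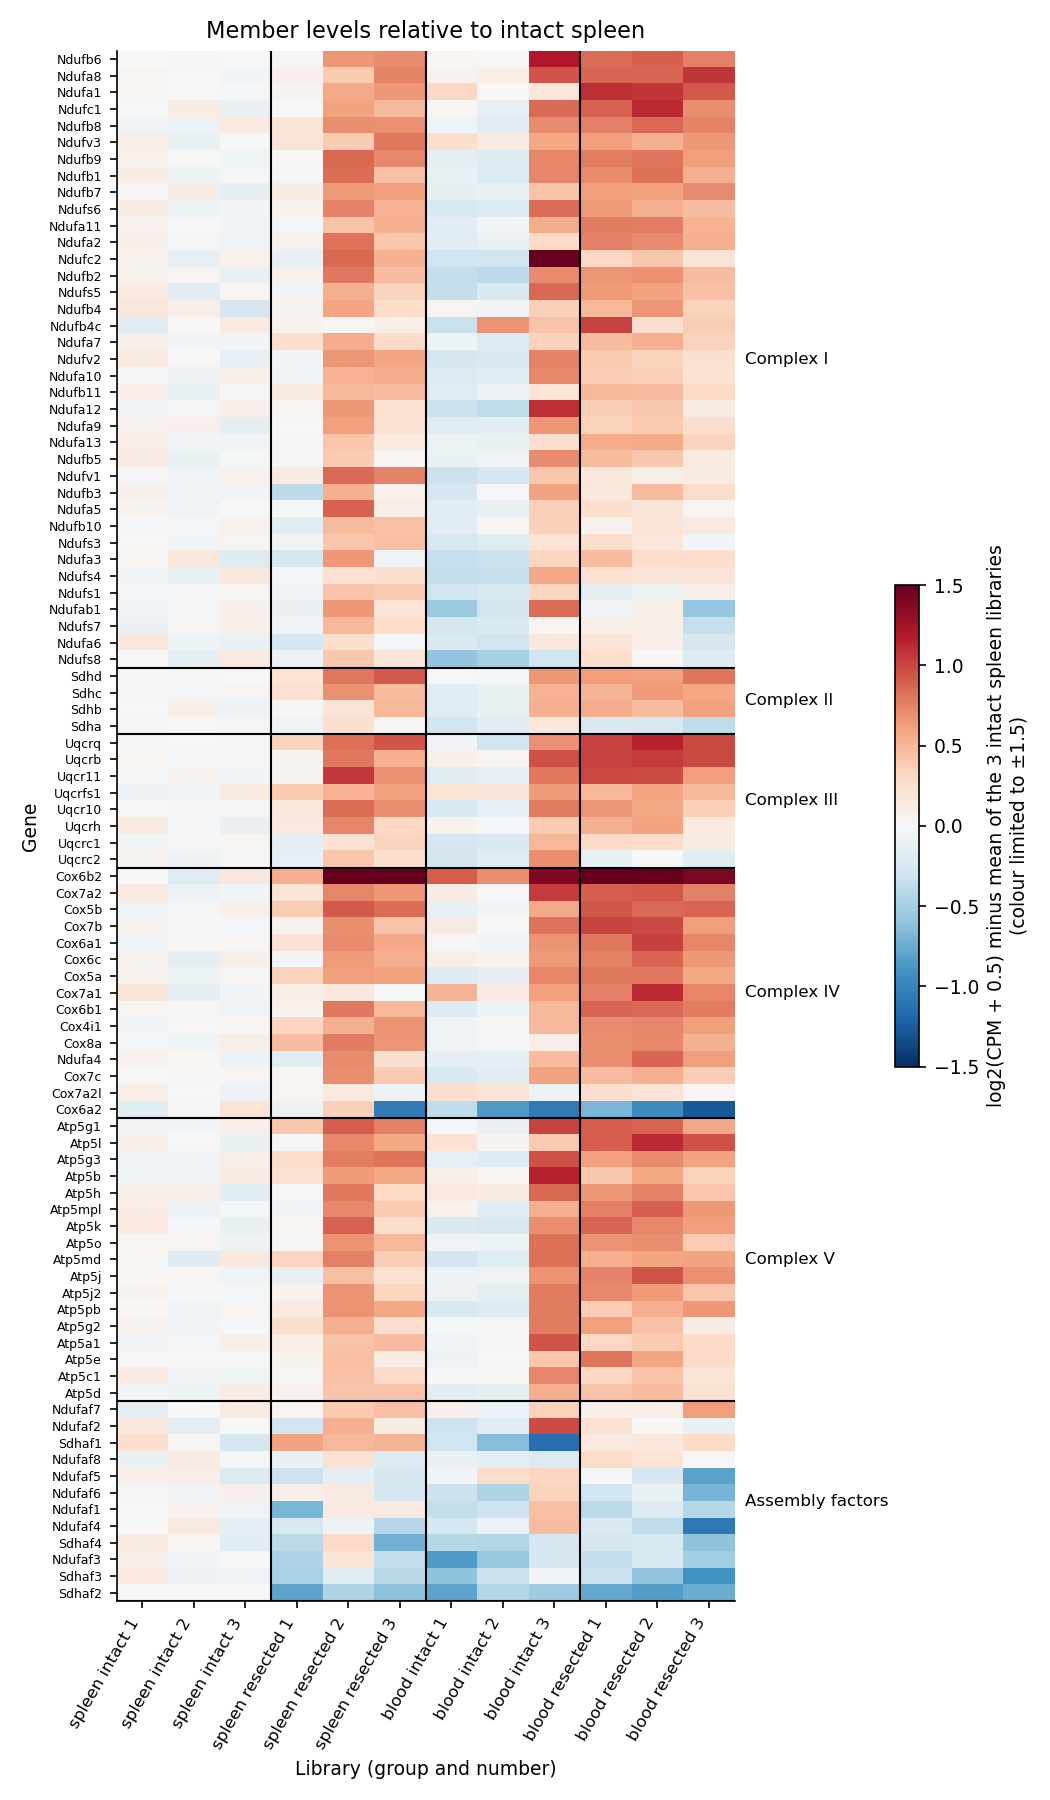
Level of 93 of the 94 members in each library as log2(CPM + 0.5) minus the mean of the 3 intact spleen libraries, grouped by complex. Red is higher and blue lower than intact spleen. Rows of complexes I to V are mostly red in resected spleen libraries 2 and 3, in intact blood library 3 and in resected blood, and near white in resected spleen library 1.

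The 12 assembly factors had a median of -0.24 in blood and -0.14 in spleen, with 7 and 9 negative. The sign in blood turned without intact library 3, where the median was 0.07 and 7 of 12 were positive. With plain totals 10 were negative in blood and 9 in spleen. Sdhaf1, which helps to insert iron-sulfur clusters into complex II, was at 19.4, 15.2 and 10.7 CPM in intact and 26.7, 26.9 and 29.7 CPM in resected blood (0.88 ± 0.21, adjusted p = 0.0158). Here intact library 3 was the lowest of its group, the reverse of its place for most subunits. In spleen Sdhaf1 was at 28.6, 24.4 and 19.9 CPM before and 36.7, 34.1 and 34.6 CPM after resection, also separate (0.53 ± 0.21, adjusted p = 0.181).

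Sdhaf2, the factor that attaches flavin to Sdha, went the other way in spleen. It was at 46.9, 47.3 and 47.4 CPM in intact and 27.1, 34.3 and 30.6 CPM in resected spleen (-0.62 ± 0.13, adjusted p = 0.0431). This call was lost with no filter on low counts (adjusted p = 0.0742), with only the groups compared in the fit (0.0544), with the replicate number as a block (0.0565) and in 10 of the 12 fits without 1 library (adjusted p of up to 0.189). Libraries of resected spleen overlapped in level with those of blood, which were at 27.1, 34.6 and 32.5 CPM in intact and 27.5, 26.1 and 28.1 CPM in resected animals (-0.21 ± 0.13, adjusted p = 0.275). Intact spleen was thus the 1 group that stood above the rest. The complex I factor with the lowest log2 difference in blood was Ndufaf4 (-0.61 ± 0.26, adjusted p = 0.122). It was at 14.6, 16.6 and 24.5 CPM in intact and 15.0, 13.4 and 8.13 CPM in resected blood.

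Between the tissues, few members passed with all libraries in the fit. In intact animals the median log2 difference of blood against spleen was 0.16 over the members and -0.02 over all features. Of the members, 0 passed as higher and 1, Sdhaf2, as lower (-0.59 ± 0.13, adjusted p = 0.0221), against 4.51% and 4.66% of all features. At an unadjusted p of 0.05 the members counted 3 higher and 4 lower, against 11.7% and 13.6% of all features, and DESeq2 called 1 and 1, against 9.96% and 8.71%. Without intact blood library 3 the median was -0.03 and Sdhaf2 still passed (-0.51), while 6 of the 12 fits without 1 library lost that call (adjusted p of up to 0.13). In resected animals the median was 0.09 against -0.14, and 2 members passed as higher and 0 as lower, against 8.54% and 10.6% of all features. The members counted 4 and 2 at an unadjusted p of 0.05, against 14.3% and 19.6%, and in DESeq2 8 and 0, against 15.3% and 13.7%. Without intact blood library 3, which is in neither group but bears on the shared spread and scaling, 13 passed as higher and 0 as lower, against 14.0% and 14.4%, and the median was 0.18. The 2 were Ndufa1 (0.60 ± 0.16, adjusted p = 0.0297) and Cox7a1, at 1.98 ± 0.60 (adjusted p = 0.0431), the 1 member past a log2 fold change of 1, as were 6.28% of all features. Cox7a1 was at 0.163, 0.196 and 0.123 CPM in resected spleen and 0.549, 0.849 and 0.535 CPM in resected blood, levels close to the limit of counting. Its call was lost in 8 of the 12 fits without 1 library and that of Ndufa1 in 2.

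Whether resection acted differently in the tissues was tested as an interaction. No member passed in edgeR, against 0.219% of all features passing as higher in blood and 0.0646% as lower. At an unadjusted p of 0.05 the members counted 1 higher and 0 lower, against 7.74% and 9.56%, and DESeq2 called 1, Sdhaf2, as higher and 0 as lower, against 4.96% and 3.93%. The median interaction was -0.02, and 0.26 without intact blood library 3. Of the 82 subunits, 73 had a positive difference in both tissues, against 32.3% of all features. In both tissues 12 of the 94 members had separate groups with higher resected libraries, against 7.52% of all features: Ndufa1, Ndufb8, Ndufb11, Uqcrb, Uqcrq, Cox4i1, Cox5b, Cox6a1, Cox6b1, Cox6b2, Cox8a and Sdhaf1. Complex IV contributed 6 of them. No gene was separate in opposite directions.

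Promoters were read from RefSeq (GRCm38.p6, 250 bases before to 50 after the start) for 79 of the 94 members, with 84 windows. Nuclear respiratory factor 1 and ETS factors such as GABP are known regulators of respiratory genes. The core TGCGCA, a palindrome, was present in 26.2% of the member windows, in 9.74% of the 21263 windows of protein-coding genes and in 7.76% of all 32851 windows of the same length. The ETS letters CCGGAAG, on either strand, were present in 26.2%, 11.6% and 8.86%, and one or the other in 46.4%, 19.5% and 15.3%. Matches to the 2 motifs cannot overlap, and a match is a description of the window only. The windows of 4 members are shown because these genes carried the differences above: Cox8a (chr19:7217567-7217866, minus strand), the gene that passed in both tissues, Cox5b (chr1:36691237-36691536, plus strand) and Ndufa1 (chrX:37191189-37191488, minus strand), which passed in blood, and Sdhaf2 (chr19:10525160-10525459, minus strand), which was lower after resection in spleen. Each is written 5′ to 3′ in the direction of the gene, and capitals mark a match to either motif on either strand.
Cox8a: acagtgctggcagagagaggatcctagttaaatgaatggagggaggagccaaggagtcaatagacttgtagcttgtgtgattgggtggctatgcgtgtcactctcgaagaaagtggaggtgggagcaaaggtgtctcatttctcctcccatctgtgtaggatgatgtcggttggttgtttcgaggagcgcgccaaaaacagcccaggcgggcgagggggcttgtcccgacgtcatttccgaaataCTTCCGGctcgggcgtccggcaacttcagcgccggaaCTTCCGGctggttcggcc
Cox5b: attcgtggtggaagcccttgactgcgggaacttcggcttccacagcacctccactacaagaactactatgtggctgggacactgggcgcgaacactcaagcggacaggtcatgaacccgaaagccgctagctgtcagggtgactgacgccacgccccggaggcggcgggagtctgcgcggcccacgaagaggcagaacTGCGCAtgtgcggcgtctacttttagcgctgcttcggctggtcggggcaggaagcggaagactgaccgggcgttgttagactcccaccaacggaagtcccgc
Ndufa1: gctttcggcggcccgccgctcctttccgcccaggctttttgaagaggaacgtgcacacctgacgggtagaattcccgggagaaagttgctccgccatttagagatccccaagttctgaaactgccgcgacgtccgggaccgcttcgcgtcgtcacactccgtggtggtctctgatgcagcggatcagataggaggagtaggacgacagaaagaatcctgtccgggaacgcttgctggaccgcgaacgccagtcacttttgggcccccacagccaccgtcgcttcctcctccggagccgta
Sdhaf2: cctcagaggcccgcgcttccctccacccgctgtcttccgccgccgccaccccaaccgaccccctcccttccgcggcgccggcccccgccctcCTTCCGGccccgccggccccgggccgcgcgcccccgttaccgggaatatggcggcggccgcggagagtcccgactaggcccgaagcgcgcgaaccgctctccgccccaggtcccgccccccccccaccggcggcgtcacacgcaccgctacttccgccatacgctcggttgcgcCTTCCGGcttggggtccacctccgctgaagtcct
Cox8a held 2 ETS matches, Cox5b 1 TGCGCA, Ndufa1 neither and Sdhaf2 2 ETS matches. Of the other genes that passed in blood and had a window, Atp5l held 1 TGCGCA and 2 ETS matches, Sdhaf1 and Cox6b1 1 ETS match each and Ndufa13 neither.

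Other genes of the pathway were described by list. The 16 electron carrier genes (cytochrome c, its partner Cyc1, electron transfer flavoproteins and ubiquinone synthesis) had medians of 0.15 in blood and 0.35 in spleen, and 0 passed in either in edgeR. At an unadjusted p of 0.05 they counted 1 higher and 1 lower in blood, against 16.9% and 19.0% of all features. In spleen they counted 3 higher and 0 lower, against 11.5% and 9.31%. Cycs, cytochrome c, was at 54.4, 57.3 and 103 CPM in intact and 77.8, 89.3 and 75.4 CPM in resected blood, with intact library 3 the highest. The 33 assembly factors outside the symbol rule had medians of -0.09 and -0.01. Among them Pet100, a complex IV assembly factor, passed in blood, at 8.04, 8.43 and 7.47 CPM in intact and 17.2, 14.0 and 20.2 CPM in resected libraries (1.10 ± 0.20, adjusted p = 0.00531). The 16 citric acid cycle genes had medians of 0.04 and 0.22, with Dlst, a subunit of the oxoglutarate dehydrogenase complex, passing in blood (0.60 ± 0.15, adjusted p = 0.018). The 4 proton and nucleotide carriers had medians of 0.31 and 0.42, and 0 passed on resection in edgeR. At an unadjusted p of 0.05, 2 were higher in each tissue, against 16.9% of all features in blood and 11.5% in spleen.

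The 12 regulators of mitochondrial biogenesis did not follow the subunits in blood, where their median was -0.40, against -0.10 over all features. Of them 10 were negative and 2 positive, against 45.2% positive over all features. At an unadjusted p of 0.05 they counted 1 higher and 6 lower, against 16.9% and 19.0%. In edgeR 1 passed as higher and 2 as lower, against 10.8% and 10.3%. Ppargc1b, a coactivator of respiratory genes, was at 25.5, 21.8 and 19.6 CPM in intact and 6.71, 7.27 and 5.29 CPM in resected blood (-1.79 ± 0.23, adjusted p = 0.00131), and intact library 3 was near the others. Polrmt, the mitochondrial RNA polymerase, was lower (-1.13 ± 0.25, adjusted p = 0.0115), and Esrra, a nuclear receptor partner of these coactivators, was higher (0.72 ± 0.19, adjusted p = 0.0246). In spleen the regulators had a median of -0.06 and 0 passed in edgeR. At an unadjusted p of 0.05, 1 was lower, against 9.31% of all features. Ppargc1b was at 20.5, 19.0 and 17.2 CPM before and 25.1, 18.2 and 14.1 CPM after resection of the liver. The tissue difference of Ppargc1b was -1.81 ± 0.32, at an adjusted p of 0.0517.

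**Figure D5:**
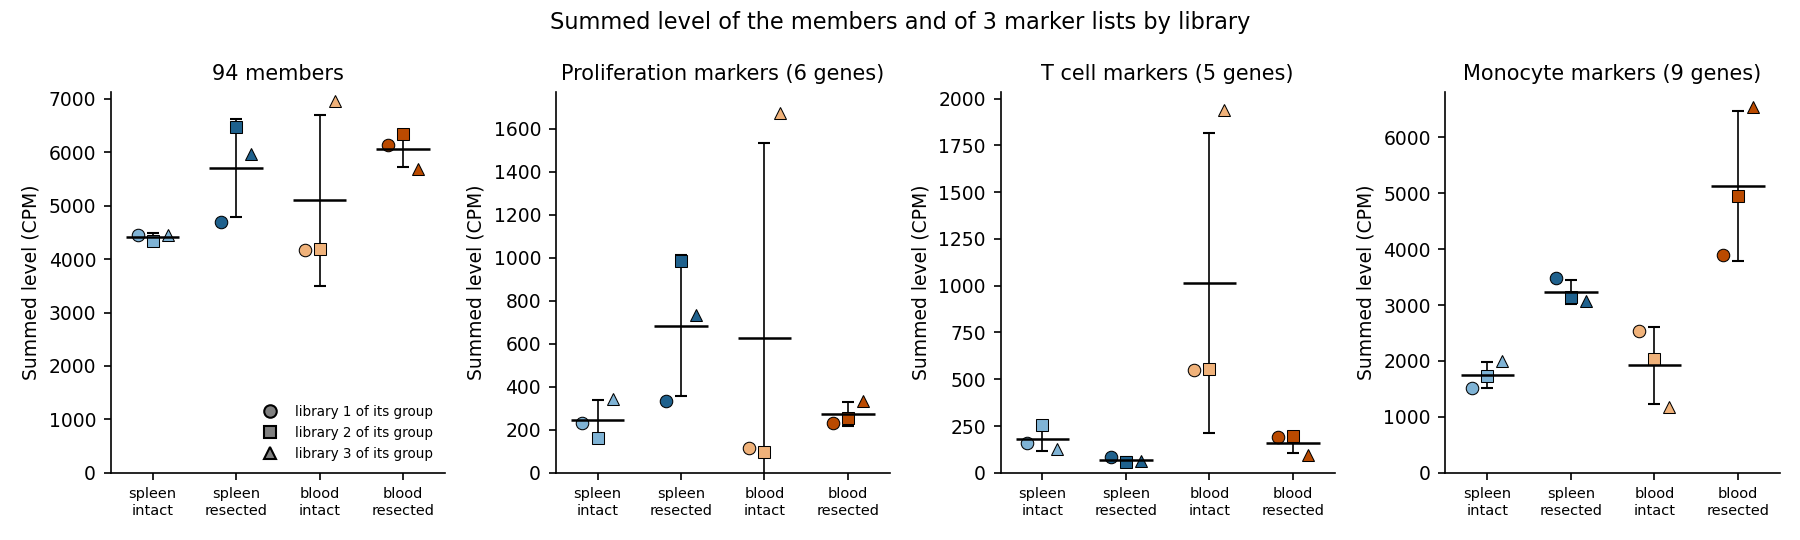
Summed level (CPM) of the 94 members and of the proliferation, T cell and monocyte marker lists in each library, with group means (lines) and 1 SD (bars, n = 3, cut at 0). Intact blood library 3 is the highest library for the members (6956 CPM), proliferation markers (1673 CPM) and T cell markers (1941 CPM) and the lowest for monocyte markers (1177 CPM).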

How the data were processed

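Gene-level estimated counts, deposited by the authors as 1 file per library, came from strand-specific mRNA libraries of the DNBSEQ type per the labels, while the study's methods name an Illumina HiSeq 2500. STAR and GRCm39 are named in the submitters' processing notes, and the counter and annotation are not given in the sources used here. Unassigned transcripts (1.75% to 4.33% of counts) were left out, accession rows were summed into gene symbols where they matched (25340 of 40274), and sums were rounded. In edgeR 4.0.16 (R 4.3.3) a robust quasi-likelihood model with TMM factors and filterByExpr was fitted to 4 groups of 3 libraries, with no covariate and two-sided tests. Benjamini-Hochberg adjustment ran over 20135 features. DESeq2 1.42.0 served as an alternative. SE is the absolute log2 fold change divided by the square root of F. The tests were checked on simulated data with less spread between libraries than the common dispersion of 0.31 estimated here. That check therefore does not show how the tests perform at the spread of these data. No 2 libraries of the same group agreed within counting noise.

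Members and lists were chosen with earlier results of these data known, so a list's direction is no independent evidence. Genes named were core subunits and isoform groups, up to 5 members per comparison and direction with the smallest p among those that passed, with at least 50 normalized counts and no overlap, and every member that passed with an absolute log2 fold change above 1, except for 1 member that is not reported here singly. Other members are named where a count of 15 or fewer is spelled out or where a value was singled out after it was seen (Ndufa2, Ndufa13, Ndufc2, Ndufaf4, Ndufb8, Ndufb11, Uqcrb and genes of the other lists). Spliced lengths are medians over GENCODE vM21 transcripts and serve only to compare levels between genes.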

Additional observations from a re-analysis of the deposited data

How the results depend on the processing

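Counts of passing members (adjusted p under 0.05) are given here in the order blood resection, spleen resection, blood against spleen intact, blood against spleen resected and tissue difference. The share of all features that passed also changed between fits and is not given for each. In spleen resection 1.02% passed as higher in the fit reported. That share was 5.09% without intact blood library 3 and 0.539% without resected spleen library 1. A changed count is therefore not a result about the members alone. In the fit reported the counts of members were 10, 2, 1, 2 and 0. They became 23, 9, 2, 8 and 1 in DESeq2. At an unadjusted p they were 27, 25, 7, 6 and 1. With a log2 fold limit of 1 they were 0, 0, 0, 1 and 0. With at least 10 counts in every library they were 17, 4, 1, 2 and 0, and with no filter on low counts 8, 0, 0, 1 and 0. Fitting only the groups compared gave 3, 0, 0 and 1. RLE factors, rows not summed and haemoglobin left out each gave 4 for blood against spleen resected and stayed within 1.5 times elsewhere. Plain totals without TMM, an alternative chosen after seeing the data, gave 4 (1 higher, 3 lower), 1, 1, 1 and 0, and with intact blood library 3 left out as well 11 (10 higher, 1 lower), 6, 1, 6 and 0. Leaving out 1 library at a time gave 3 to 52, 0 to 16, 0 to 1, 0 to 13 and 0 to 0, the 52 without intact blood library 3. The median log2 difference of the members ranged over those fits from 0.22 to 0.61 in blood resection and 0.25 to 0.51 in spleen resection. It ranged from -0.034 to 0.33 for blood against spleen intact and 0.072 to 0.32 for blood against spleen resected. For the tissue difference the range was -0.17 to 0.26.

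Whether the replicate numbers shared by groups pair the libraries was not settled, and the fit reported treats the libraries as unpaired. Correlations of same-numbered deviations between spleen and blood were -0.014, 0.073 and 0.046 in intact animals. In resected animals they were 0.084, 0.21 and 0.31. There the highest correlations with a differently numbered library were lower, at -0.034, 0.17 and -0.15. With the number as a replicate block the counts were 8, 0, 1, 0 and 0.

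Signs turned in some fits for the members below, not all of which were close to 0, and the cause was not tested. In the fit reported Cox6a2 was at -0.50 in blood and -0.23 in spleen, and Uqcrc2 at -0.24 in blood. In blood Ndufs1 took values of 0.029 (RLE and DESeq2), 0.032 (rows not summed), 0.011 (no filter), 0.021 (10 counts in every library) and 0.013 (replicate block), and Atp5a1 took 0.00034 (RLE), 0.00031 (DESeq2), 0.0082 (rows not summed) and 0.017 (block). With plain totals blood values were -0.16 for Ndufv1, -0.12 for Uqcrc1, -0.15 for Uqcrfs1, -0.27 for Cox7a2l and -0.21 for Atp5g2, and splenic values -0.057 for Sdha and -0.082 for Cox7a2l. With plain totals and without intact blood library 3, Atp5a1 was 0.052, Atp5b 0.080 and Cox7a2l -0.37 in blood, and Sdha -0.057 and Cox7a2l -0.082 in spleen. Over fits that left out 1 library, blood values ran from -0.15 to 0.36 for Atp5a1, -0.23 to 0.39 for Atp5b, -0.93 to 0.043 for Cox6a2, -0.066 to 0.13 for Cox7a2l, -0.068 to 0.21 for Ndufs1 and -0.36 to 0.13 for Uqcrc2. Splenic values ran from -0.80 to 0.22 for Cox6a2, -0.023 to 0.093 for Cox7a2l and -0.041 to 0.11 for Sdha. Cox6a2 and Cox7a1 lie at or near the limit of 3 counts per library in some libraries, which covers counting error only.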

Other observations

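Genes with a matching symbol below the count minimum were few. Cox4i2, the hypoxia-associated form of subunit IV, had 0 to 12 counts per library, and Ndufa4l2 had 0 to 12. Cox7b2, Cox8c and Ndufa11b had 0 counts in every library. A further 2 genes reached only through accessions, Ndufb4b (5 to 66 counts) and Ndufs5-ps (13 to 56 counts), met the minimum and were left out since no row carries their symbol.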
